A study of Homo sapiens with 12 samples.

Results

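ZNF genes encode zinc finger proteins, most of which carry an array of C2H2 fingers, small folds held by a zinc ion that read DNA. Many of them also hold a KRAB box, which recruits the corepressor TRIM28 and, through it, the histone methyltransferase SETDB1 to silence mobile elements and genes. Members without a KRAB box include promoter-binding activators, subunits of chromatin complexes and a few proteins that bind RNA. C2H2 genes arose by tandem duplication, and their fingers typically lie in 1 long last exon. N6-methyladenosine (m6A) in mRNA is commonly found in long internal exons and near stop codons.

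The genes described here were chosen by their symbol and by the place of their peaks: the symbol starts with ZNF, at least 1 list holds an m6A peak of the gene, and its peaks lie on a chromosome other than 19. There were 233 of them among the 10536 genes with a peak in any list, and they held 2721 of 81380 peaks. By RefSeq gene type 221 were protein-coding, 7 were transcribed pseudogenes and 5 were long noncoding RNAs. A further 175 ZNF genes had peaks on chromosome 19, and 10127 genes carried another symbol or none. The symbol does not define a protein class in every case. ZNFX1 is an RNA helicase-like antiviral sensor, and the noncoding RNAs (ZNF22-AS1, ZNF32-AS1, ZNF407-AS1, ZNF503-AS2 and ZNF594-DT) carry the name of a neighbouring gene. Since a peak was required to enter the set, having a peak is no finding here.

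The RNA came from 143B cells, an established human osteosarcoma line, 48 h after transfection with siRNAs against ALKBH5, a demethylase that erases m6A from RNA, or with scrambled siRNA. The assay was MeRIP-seq, which sequences the RNA fragments that an m6A antibody captures. There were 3 ALKBH5 knockdown and 3 scrambled immunoprecipitates with 1 peak list each, and the 6 input samples were not analysed here. The replicate number stands for a protocol. Polyadenylated RNA was used in replicates 1 and 3, each with its own antibody, and total RNA in replicate 2, with the antibody of a kit. Sets of 3 values below are in the order of replicates 1, 2 and 3. The labels do not say whether the numbers were separate cultures, so p-values measure the spread between these libraries, which may be technical. A gene counts as "called" in a library if the list holds a peak under its gene number. Absence of a call is not absence of m6A, since fewer transcripts, lower depth and less methylation cannot be told apart in a peak list.

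The lists of replicate 2 stood apart by their size. They held 5917 peaks in the knockdown and 5677 in the scrambled library, against 15139 to 18724 in the other lists. The siRNA target ALKBH5 had no peak in the knockdown libraries and 1 peak each in scrambled replicates 1 and 3. Of 9 osteoblast and mesenchyme markers, RUNX2, COL1A1, SPP1 and BGLAP were called, while SP7, ALPL, COL1A2, SPARC and VIM were not. None of 4 epithelial and 3 endothelial markers was called, and of 4 blood cell markers CD14 was. A peak is not an RNA level, so these calls do not measure cell identity.

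Of the 233 genes, 218, 71 and 224 were called in the knockdown, against 213, 91 and 230 in the scrambled libraries. Of all 10536 genes, 8267, 3373 and 9125 were called in the knockdown and 7010, 3305 and 9288 in the scrambled libraries, so replicate 2 was low for all genes too. The number was higher in the knockdown in replicate 1 and lower in replicates 2 and 3, with differences of 5, -20 and -6 genes. On average 171 ± 86.7 were called in the knockdown and 178 ± 75.8 in the scrambled libraries (SD, n = 3 each). The mean difference of -7 lay well inside the spread (two-sided exact permutation test, p = 0.700, adjusted p = 1), which includes the gap between replicate 2 and the other replicates. With 3 libraries against 3 this test cannot go below 0.100. The sign turned without knockdown replicate 2 (43) or without scrambled replicate 1 (10.5) or 3 (19). Each of these subsets compares unlike sets of replicates. Without both libraries of replicate 1, 2 or 3 the difference kept its sign, at -13, -0.500 and -7.50 genes.

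As a share of all genes called in the same list, these ZNF genes made up less of the knockdown list in every pair. They were 2.64, 2.10 and 2.45% of the genes called in the knockdown. In the scrambled libraries they were 3.04, 2.75 and 2.48%. The mean was 2.40 ± 0.270% in the knockdown and 2.76 ± 0.281% in the scrambled libraries (SD, n = 3 each), and the difference of -0.357 percentage points did not pass the exact permutation test (p = 0.200, adjusted p = 1). In replicate 1, 7898 other genes were called in the knockdown list and 6646 in the scrambled list, and in replicate 2 these numbers were 3280 and 3183. ZNF genes on chromosome 19 had the same order, with 1.81, 0.623 and 1.79% in the knockdown and 2.14, 0.908 and 1.85% in the scrambled lists.

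**Figure D1:**
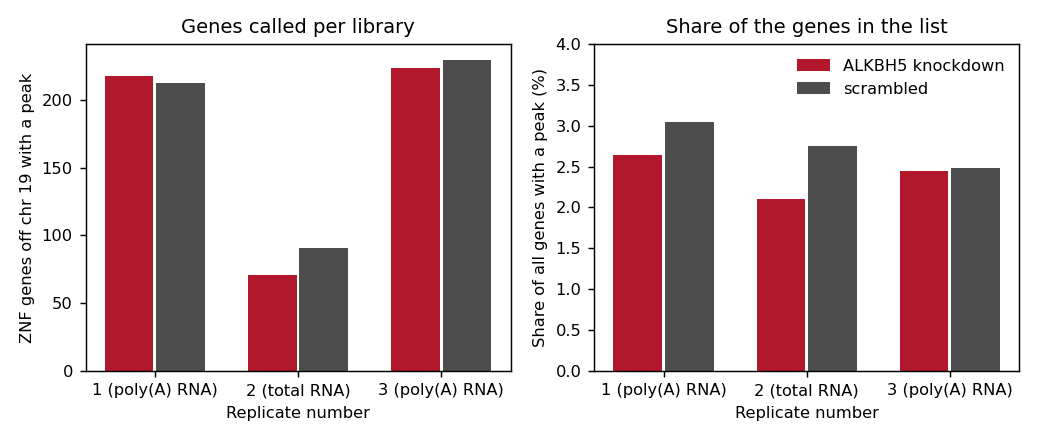
Number of ZNF genes off chromosome 19 with a peak (left) and their share of all genes with a peak in the same list in percent (right), for each replicate number, with ALKBH5 knockdown and scrambled libraries side by side. Counts in replicate 2 are 71 and 91, against 213 to 230 elsewhere, and the share is lower in the knockdown in all 3 pairs.

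Most of the genes were called in 4 or more libraries. Of the 233, 56 were called in all 6 libraries, 48 in 5, 99 in 4, 19 in 3, 7 in 2 and 4 in 1. Over all genes, 23.3% were called in all 6 libraries and 12.9% in 1 library, while among these ZNF genes the shares were 24.0% and 1.72%. Among ZNF genes on chromosome 19, 9.71% were called in all 6 libraries. The 4 ZNF genes called once, in scrambled libraries, were ZNF185, ZNF204P, ZNF474 and ZNF594-DT.

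The median number of peaks per called gene was 1 in both replicate 2 libraries and 2 in the other lists. In replicate 2, 52.1% of the called genes had 1 peak in the knockdown and 54.9% in the scrambled library. Called genes carried on average 2.84, 2.03 and 2.62 peaks in the knockdown, and 2.79, 1.89 and 2.62 in the scrambled libraries. Other genes carried between 1.58 and 1.94 in the same lists, and ZNF genes on chromosome 19 between 1.38 and 2.38. At least 4 peaks were found in 59, 12 and 50 of the ZNF genes in the knockdown and in 60, 11 and 49 in the scrambled libraries. Overlapping peaks of the 6 lists were pooled, strand by strand, to form regions. The 233 genes had 612 regions, with a median of 2 and at most 10 per gene. ZNF721 had the 10 regions, and 49 genes had 1.

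Most peaks on these transcripts lay within 1 exon block. Their median length was 300, 180 and 447 nt in the knockdown, against 211, 151 and 476 nt in the scrambled libraries. Between the conditions the medians did not separate (exact permutation test, p = 0.900, adjusted p = 1). The sign of that difference turned without knockdown replicate 3 (-39.3 nt) or without scrambled replicate 1 (-4.50 nt) or 2 (-34.5 nt). Each of these subsets compares unlike sets of replicates. Without both libraries of replicate 1, 2 or 3 the difference was 0, 30 and 59 nt. Against other genes of the same list, which had medians of 269, 151 and 331 nt in the knockdown and 206, 151 and 330 nt in the scrambled libraries, the ZNF median was longer in 5 of 6 libraries and equal in the other. The mean difference was 54.5 nt (two-sided exact sign-flip test over libraries, p = 0.0625, adjusted p = 0.0833). It rested on replicate 3, where it was 116 nt in the knockdown and 146 nt in the scrambled library, and it was 16.2 nt without both libraries of replicate 3. Against ZNF genes on chromosome 19 the median was longer in 6 of 6 libraries, by 36.7 nt on average (exact sign-flip test, p = 0.0312, the smallest possible, adjusted p = 0.0625). With the best-scored 50% of each list or with lists of equal size this sign turned, to -24.5 and -11.8 nt. The difference was 117 nt in knockdown replicate 3 and 1 to 30 nt in the other libraries, and its mean was 20.6 nt without that library and 19.2 nt without both libraries of replicate 3.

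The share of peaks in 1 exon block was 91.0, 97.9 and 86.7% in the knockdown, against 92.6, 99.4 and 89.4% in the scrambled libraries. It exceeded that of other genes in 6 of 6 libraries, by 4.85 percentage points on average (range 2.78 to 6.81, exact sign-flip test over libraries, p = 0.0312, the smallest possible, adjusted p = 0.0625 over 4 comparisons). Against ZNF genes on chromosome 19 it was higher in 2 of 6 libraries, with a mean difference of -2.98 points (exact sign-flip test, p = 0.125, adjusted p = 0.125). All 6 libraries come from 1 cell line and share genes, so these tests describe the libraries and not other cells. Peaks of 1000 nt or more numbered 29, 0 and 79 in the knockdown (4.68, 0 and 13.5%) and 7, 0 and 102 in the scrambled libraries (1.18, 0 and 16.9%). Among other genes the shares were 4.03, 0.171 and 9.09% in the knockdown and 1.06, 0.0398 and 7.87% in the scrambled libraries. In replicate 3, ZNF genes on chromosome 19 had 11.3% in the knockdown and 17.9% in the scrambled library. The longest peak of the set, of 3809 nt, lay in ZNF646 in knockdown replicate 3.

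**Figure D2:**
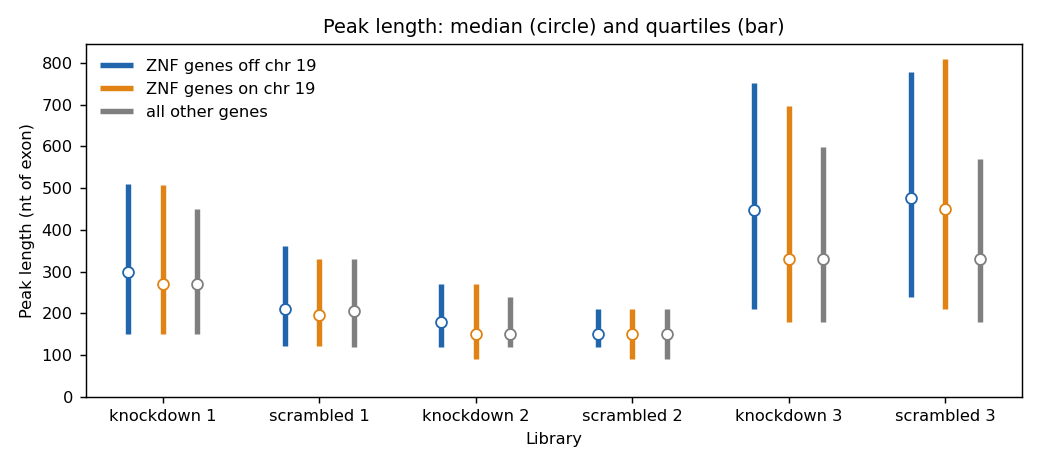
Peak length in nt of exon for ZNF genes off chromosome 19, ZNF genes on chromosome 19 and all other genes, in each library; circles are medians and bars run between the quartiles. The ZNF medians of replicate 3, 447 nt in the knockdown and 476 nt in the scrambled library, lie above the 331 and 330 nt of other genes.

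The genes lay on 20 chromosomes, and 107 of them stood in clusters of at least 3. A cluster was a chain of these genes in which neighbours lay within 500 kb by their outermost peaks (hg19). There were 21 such clusters, and 100 genes had no neighbour that close. Chromosome 7 held 28 of the genes, chromosome 16 held 27, chromosome 10 held 20 and chromosome 1 held 18. On chromosome 18 they were 7.24% of all genes with a peak, on chromosome 16 they were 5.87% and on chromosome 7 they were 5.51%.

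**Figure D3:**
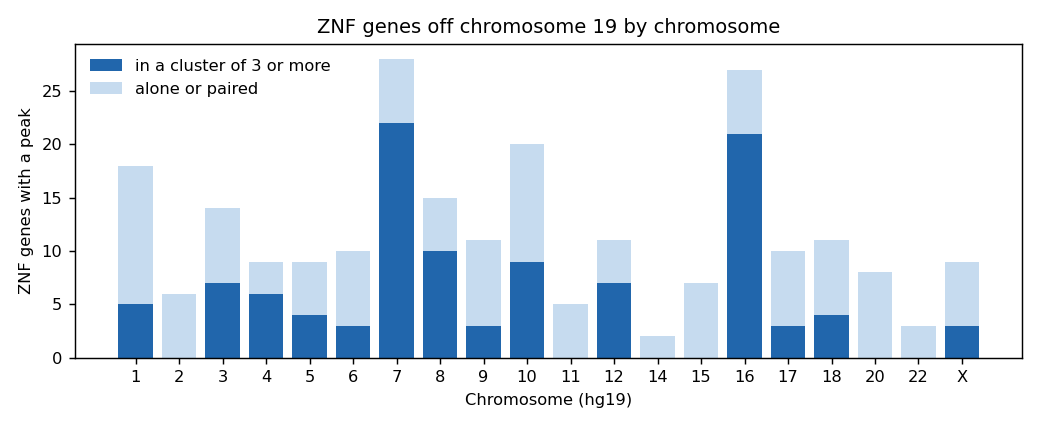
Number of ZNF genes with a peak on each chromosome other than 19 (hg19), split into genes in clusters of 3 or more within 500 kb and genes alone or paired. Chromosomes 7 and 16 hold 22 and 21 genes in clusters.

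The largest clusters held 11 genes each and differed in how their members were called with total RNA. The cluster at chr16:30407110-31094323 ran over ZNF48, ZNF771, ZNF768, ZNF747, ZNF764, ZNF688, ZNF785, ZNF689, ZNF629, ZNF668 and ZNF646. All 11 were called in every library of replicates 1 and 3. In replicate 2, 7 were called in the knockdown and 6 in the scrambled library. The cluster at chr7:148767092-149561960 ran from ZNF786 to ZNF862 and held ZNF282, a repressor first described for a viral promoter, and ZNF746, the parkin substrate PARIS. In replicate 2, 2 of its genes were called in the knockdown and 5 in the scrambled library, and in replicate 1 the counts were 11 and 8. ZNF746 was called in all 6 libraries with 2 peaks in each, which covered 930, 780 and 1168 nt in the knockdown and 1109, 570 and 1169 nt in the scrambled libraries.

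In 3 of the 4 clusters of 7 genes, knockdown replicate 2 had fewer calls than its control, by few genes each. Some of the other clusters had equal counts or more calls in the knockdown. Of all 107 clustered genes, 26 were called in knockdown and 35 in scrambled replicate 2, against 3373 and 3305 of all 10536 genes. The cluster at chr12:133499874-133781873 holds ZNF10, the gene of KOX1, whose KRAB box is the repressor domain used in CRISPR interference, and its members ZNF268, ZNF26 and ZNF891 had peaks in scrambled replicate 2. None of its 7 genes was called in knockdown replicate 2, and all 7 were called in every library of replicates 1 and 3. ZNF10 had 4, 0 and 3 peaks in the knockdown and 3, 0 and 2 in the scrambled libraries. The cluster at chr7:63797322-64865070 (ZNF736, ZNF680, ZNF107, ZNF138, ZNF273, ZNF117 and ZNF92) had 0 genes called in knockdown and 2 in scrambled replicate 2, ZNF92 and ZNF138. The cluster at chr8:145946383-146221943 had 1 gene called in knockdown replicate 2, ZNF7, and 2 in the control, ZNF7 and ZNF251. The fourth of these clusters, chr16:3168906-3487498, which includes the KRAB repressor ZNF263, had 3 genes called in knockdown replicate 2 and 2 in its control.

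Clustered genes had a smaller share called than the other ZNF genes in both replicate 2 libraries, a difference that was not tested. Of the 107, 24.3% were called in knockdown replicate 2 and 32.7% in scrambled replicate 2, against 35.7 and 44.4% of the 126 other ZNF genes. In replicates 1 and 3 the clustered share was the larger, at 95.3 and 98.1% in the knockdown and 91.6 and 100% in the scrambled libraries. There the other ZNF genes had 92.1 and 94.4% in the knockdown and 91.3 and 97.6% in the scrambled libraries. Clustered copies can be nearly identical in sequence, and how the authors assigned reads that map to several copies is not given in the sources used here. Reads may also be shared by genes that lie apart. ZNF37A and ZNF33A stood in the cluster at chr10:38091534-38412128, while the pseudogene ZNF37BP and ZNF33B lay outside the clusters of at least 3. ZNF37A with ZNF37BP, or ZNF33A with ZNF33B, may share reads, so their values are uncertain. Regions shared by more than 1 gene of the set numbered 3, namely 1 of ZNF10 with ZNF268 and 2 of ZNF747 with ZNF768.

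The genes with most peaks and most covered exon length were ZNF276, ZNF292, ZNF646 and ZNF445. ZNF276 (chr16:89786808-89807302, plus strand) had 5, 7 and 5 peaks in the knockdown and 8, 5 and 6 in the scrambled libraries. These covered 4283, 2040 and 4461 nt in the knockdown and 2161, 754 and 3775 nt in the scrambled libraries, more in the knockdown in all 3 pairs. More peaks did not mean more covered length. In replicate 1 the scrambled list split ZNF276 into more and shorter peaks than the knockdown list.

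ZNF292, a large zinc finger factor in which mutations cause a neurodevelopmental disorder, had 9, 0 and 10 peaks in the knockdown. In the scrambled libraries it had 11, 2 and 4. Its covered length was 3933, 0 and 5013 nt in the knockdown and 2498, 362 and 6266 nt in the scrambled libraries, larger in the knockdown in replicate 1 and smaller in replicates 2 and 3. ZNF445, a KRAB protein that helps to keep genomic imprints, covered 3240, 811 and 3242 nt in the knockdown and 2520, 1353 and 3479 nt in the scrambled libraries, again larger in replicate 1 alone. ZNF407 covered 2549, 1170 and 3206 nt in the knockdown and 1410, 1113 and 3835 nt in the scrambled libraries. ZNF318 covered 2613, 694 and 4173 nt in the knockdown and 2164, 393 and 4292 nt in the scrambled libraries, and both had less in the knockdown in replicate 3. ZNF142 covered 2786, 1891 and 3144 nt in the knockdown and 1770, 750 and 2904 nt in the scrambled libraries, more in the knockdown in all 3 pairs.

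ZNF646 and ZNF668 lie head to head on chromosome 16. ZNF646 covered 4352, 1568 and 4950 nt in the knockdown and 3125, 1145 and 4531 nt in the scrambled libraries. ZNF668, a gene linked to p53 stability, covered 1583, 449 and 2387 nt in the knockdown and 481, 209 and 1495 nt in the scrambled libraries. Both covered more in the knockdown in all 3 pairs, with log2 ratios of 0.48, 0.45 and 0.13 for ZNF646 and 1.72, 1.10 and 0.68 for ZNF668. Their outermost peaks came close to each other. The last ZNF668 region ended at 31085641 and the first ZNF646 region began at 31085803 (hg19), with 161 bases between them, though the first ZNF646 region was called in knockdown replicate 1 and in no other library.

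The sequence between their starts is shown because these neighbouring genes start from it in opposite directions. It is given from RefSeq on GRCh38.p14, as chr16:31074241-31074421 on the plus strand, 181 bases between the ZNF668 start (31074240, minus strand) and the ZNF646 start (31074422, plus strand). Capitals mark CCGGAAG, the core of sites for ETS factors, searched on both strands.
ZNF668 to ZNF646: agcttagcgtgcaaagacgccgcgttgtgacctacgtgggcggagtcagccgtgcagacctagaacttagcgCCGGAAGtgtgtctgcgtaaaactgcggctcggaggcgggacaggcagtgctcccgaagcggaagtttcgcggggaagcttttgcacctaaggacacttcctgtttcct
These letters occur 1 time in the stretch. In RefSeq's table of 300-base promoter windows, CCGGAAG or its reverse complement was found in 81 of 258 windows of 190 matched ZNF genes of the set (31.4%), in 40.3% of windows of ZNF genes on chromosome 19, in 14.8% of windows of other genes with a peak and in 10.3% of all windows. A match is a description of the letters and not of binding. Whether these sequences bear on covered length was not tested.

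Covered length was larger in the knockdown in all 3 pairs for 19 of the 56 genes called in all 6 libraries, and smaller in all 3 pairs for 1. Over all genes called in all 6 libraries the shares were 34.1% and 2.08%, so 33.9% and 1.79% here were near the background. The largest mean ratios were those of ZNF512B, ZNF74, ZNF668, ZNFX1 and ZNF703. ZNFX1 covered 3299, 513 and 4467 nt in the knockdown and 1236, 151 and 3898 nt in the scrambled libraries. ZNF703, a gene amplified in luminal breast cancer, covered 1073, 836 and 1222 nt in the knockdown and 628, 239 and 1013 nt in the scrambled libraries. ZNF74 covered 1169, 271 and 1350 nt in the knockdown and 420, 90 and 930 nt in the scrambled libraries. ZNF512B, whose longest peak was 330 nt, covered 330, 180 and 540 nt in the knockdown and 90, 150 and 150 nt in the scrambled libraries. The gene with the opposite order in all pairs was the noncoding ZNF407-AS1, at 1170, 121 and 1621 nt in the knockdown and 1200, 151 and 1740 nt in the scrambled libraries.

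**Figure D4:**
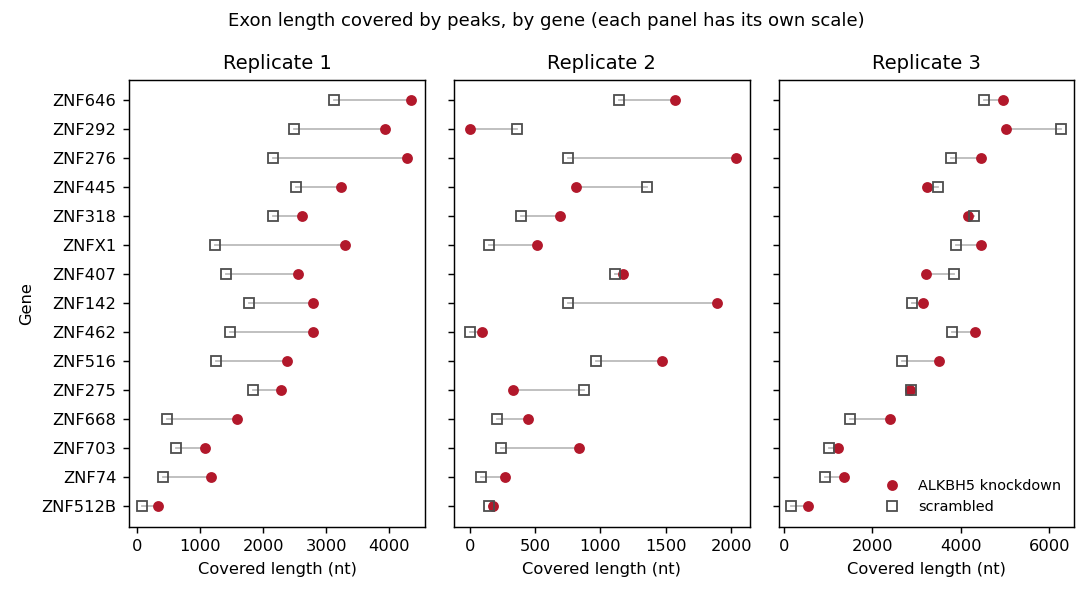
Exon length covered by peaks in nt, in ALKBH5 knockdown (filled circles) and scrambled (open squares) libraries of each replicate, for the genes with most peaks, most covered length or the largest increase in all pairs. Genes of the last kind were chosen for being higher in all pairs. All 15 genes are higher in the knockdown in replicate 1, as are 81.9% of all genes called in both of its libraries. ZNF292, ZNF445 and ZNF275 are lower in replicates 2 and 3, and ZNF407 and ZNF318 are lower in replicate 3.

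Summed over the set, the peaks covered 240.0, 30.3 and 326.0 kb in the knockdown, against 168.4, 30.4 and 353.4 kb in the scrambled libraries. The ratios were 1.42, 0.997 and 0.922, while for other genes they were 1.58, 1.13 and 1.02. The mean difference of 14.7 kb had no stable sign (exact permutation test, p = 1, adjusted p = 1). It was -5.92 kb without knockdown replicate 1, -48.9 kb without knockdown replicate 3 and -62.2 kb without scrambled replicate 2. These subsets compare unlike sets of replicates. Without both libraries of replicate 1, 2 or 3 the difference was -13.7, 22.1 and 35.7 kb. Of 203 genes called in both libraries of replicate 1, 164 covered more in the knockdown (80.8%, against 81.9% of all genes). In replicate 2, 31 of 57 did (54.4%, against 52.5% of all genes). In replicate 3, 81 of 224 did (36.2%, against 48.9% of all genes) and 136 covered less (60.7%, against 45.2%). Of ZNF genes on chromosome 19, 21.7% covered more and 75.8% covered less in that replicate. The median log2 ratio of the set was 0.50, 0.10 and -0.08 in replicates 1, 2 and 3, and 0.56, 0.11 and 0.00 over all genes. For ZNF genes on chromosome 19 it was 0.45, -0.13 and -0.23.

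Of the 233, 158 were called in as many knockdown as scrambled libraries (67.8%, against 56.8% of all genes). Of the others, 28 were called in more knockdown than scrambled libraries (12%, against 26.1% of all genes) and 47 in fewer (20.2%, against 17.1%). ZNF genes on chromosome 19 had 77.7% equal, 6.29% in more and 16% in fewer. A gene called in 1 library cannot be equal, and such genes were 1.72% of the set and 12.9% of all genes. The median difference in libraries called was 0 in the set and 0 over other genes. Both libraries of a pair called 203, 57 and 224 of the genes, or 89.0, 54.3 and 97.4% of those called in either, against 73.7%, 61% and 85.1% over all genes. In replicate 1, 15 genes were called in the knockdown alone and 10 in the scrambled library alone, 6.58 and 4.39% of the 228 called in either. Over all genes these shares were 20.3% and 5.99%, and for ZNF genes on chromosome 19 they were 4.46 and 4.46%. In replicate 3 the counts were 0 and 6 of 230, that is 0 and 2.61%, against 6.65% and 8.29% of all genes. The scrambled list of replicate 3 held 230 of the 233 genes, so 3 had no peak there. The 6 were ZNF204P, ZNF207, ZNF335, ZNF474, ZNF594-DT and ZNF608.

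Of the 233 genes, 105 were called in a replicate 2 library (45.1%, against 39.2% of all genes called in replicate 1 or 3). There 14 genes were called in the knockdown alone and 34 in the scrambled library alone, 13.3 and 32.4% of the 105 called in either. Over all genes the shares were 20.3% and 18.7%. For ZNF genes on chromosome 19 they were 4 and 13 of 34. Of the 47 genes called in fewer knockdown libraries, 34 differed so in replicate 2, and without both libraries of that replicate 15 genes were called in more and 13 in fewer. The 34 calls were weak. The best peak of such a gene ranked at a median within-list percentile of 21.8 (100 is best), 24 of the genes had 1 peak there, and the median covered length was 151.5 nt. The 14 gained genes had a median percentile of 39.9, but 12 of them had 1 peak and their median covered length was 135.5 nt, so these calls were small too. Among the 201 genes called in all 4 libraries of replicates 1 and 3, 69 were called in knockdown replicate 2 (34.3%, against 50.1% of all such genes) and 90 in scrambled replicate 2 (44.8%, against 49.9%). This is 1 pair of libraries, so the difference has no replicate check.

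**Figure D5:**
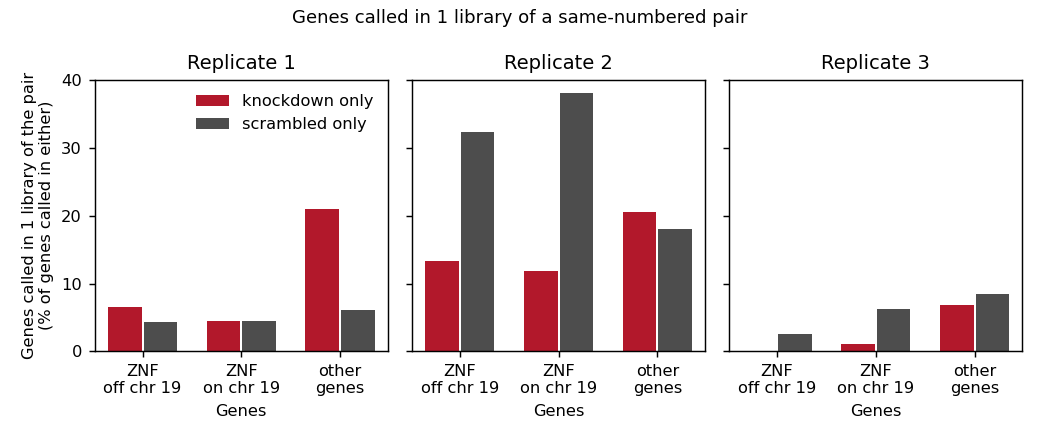
Percentage of genes called in 1 library of a same-numbered pair alone, of genes called in either, for ZNF genes off chromosome 19, ZNF genes on chromosome 19 and other genes. In replicate 2 the set has 13.3% in the knockdown alone and 32.4% in the scrambled library alone, against 20.6 and 18.1% for other genes.

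Few genes differed by at least 2 libraries, and no single gene can pass a test with 3 libraries against 3. ZNF76, a relative of the snRNA promoter activator ZNF143, was the gene called in at least 2 more knockdown libraries (0.429% of the set, against 3.02% of all genes). It had 1 region, at chr6:35263074-35263641, whose peak covered 239, 150 and 568 nt in the knockdown and 0, 0 and 418 nt in the scrambled libraries. ZNF608, ZNF207 and ZNF335 were called in 2 fewer (1.29%, against 1.04% of all genes), with peaks in scrambled replicates 1 and 3 and in no knockdown library. ZNF608, the paralogue of ZNF609, had 1 and 4 peaks there, which covered 91 and 1173 nt. The ZNF207 peak, in the gene of the spindle protein BUGZ, covered 121 and 180 nt at chr17:30696853-30697032. The ZNF335 peak, in the gene of a subunit of histone H3 methyltransferase complexes, covered 91 and 241 nt at chr20:44577292-44577532. Its within-list percentiles were 4.20 and 40.0, so 1 of its 2 calls was among the weakest of a list.

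Of the 612 regions, 135 were called in more knockdown libraries (22.1%, against 32.6% of all regions) and 147 in fewer (24.0%, against 23.1%). For regions of ZNF genes on chromosome 19 the shares were 15.6% and 31.2%. The order of the counts in the set was not stable. Without both libraries of replicate 2 there were 113 more and 104 fewer, and without replicate 3 there were 194 and 131. Without replicate 1 there were 69 more and 132 fewer, and with all lists at equal size 63 and 115. None of the 612 had calls in the 3 knockdown libraries and 0 scrambled ones, or the reverse, where all regions had 0.129% and 0.00923%. At least 2 more knockdown libraries called 7 regions (1.14%, against 3.42%), and at least 2 fewer called 9 (1.47%, against 1.08%). The 7 lay in ZNF516, ZNF672, ZNF655, ZNF696, ZNF707, ZNF76 and ZNF79. The ZNF516 region at chr18:74154489-74174994, which spans an intron, covered 332, 241 and 540 nt in the knockdown and 0, 0 and 421 nt in the scrambled libraries. The 9 lay in ZNF207, ZNF23, ZNF311, ZNF335, ZNF354A, ZNF445, ZNF608, ZNF629 and ZNF70. In ZNF23 the region at chr16:71481533-71481802 had no peak in the knockdown and covered 210 and 270 nt in scrambled replicates 1 and 3. Regions singled out here were chosen after their values were seen.

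Genes of chromatin complexes came from a list of 14. All 14 were called, 9 of them in all 6 libraries, 1 in more and 4 in fewer knockdown libraries, where the shares over all genes were 23.3%, 26.1% and 17.1%. ZNF217, an amplified oncogene that binds the CoREST and LSD1 corepressors, covered 2098, 331 and 3112 nt in the knockdown and 1439, 633 and 2963 nt in the scrambled libraries. ZNF516, which joins similar complexes, covered 2373, 1474 and 3509 nt in the knockdown and 1262, 963 and 2672 nt in the scrambled libraries. The partners ZNF592, ZNF532 and ZNF687, which form a complex with ZMYND8, were each called in all 6 libraries. ZNF687 covered 2220, 901 and 2339 nt in the knockdown and 1440, 420 and 2608 nt in the scrambled libraries. The 4 called in fewer knockdown libraries were ZNF644, a partner of the H3K9 methyltransferases G9a and GLP, ZNF518A, ZNF518B and the SUMO ligase ZNF451, and each missed a call in knockdown replicate 2. In scrambled replicate 2 they covered 240, 61, 272 and 271 nt. ZNF462 was the reverse, with 91 nt in knockdown and 0 nt in scrambled replicate 2.

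Of 15 promoter-binding and lineage factors, 12 were called, 4 of them in all 6 libraries, with 3 called in more and 2 in fewer knockdown libraries, against 23.3%, 26.1% and 17.1% of all genes. ZNF143, ZNF219 and ZNF423 had no peak. ZNF281, a factor of pluripotent cells, covered 2391, 572 and 2689 nt in the knockdown and 1794, 451 and 2839 nt in the scrambled libraries. ZNF148, which binds GC-rich promoters, covered 1983, 241 and 2072 nt in the knockdown and 1384, 695 and 2043 nt in the scrambled libraries. ZNF521, a regulator of osteoblast and blood cell differentiation, was called in replicates 1 and 3 of both conditions and not in replicate 2. The 3 called in more were ZNF76, ZNF652 and ZNF395, and the 2 called in fewer were ZNF335 and ZNF711, a gene of X-linked intellectual disability.

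Of 7 genes with roles on RNA, 6 were called, 2 in all 6 libraries (23.3% of all genes were). ZNF638, an RNA-binding protein that silences unintegrated retroviral DNA with the HUSH complex, covered 1768, 120 and 3263 nt in the knockdown and 1261, 781 and 3594 nt in the scrambled libraries. ZNF106 covered 1921, 421 and 2940 nt in the knockdown and 1144, 783 and 2909 nt in the scrambled libraries, so both genes had less in the knockdown in replicate 2. ZNF598, the ubiquitin ligase that marks collided ribosomes, had 1 peak in each library of replicates 1 and 3 and none in replicate 2. ZNF622, a factor of 60S ribosome maturation, was called in 3 knockdown and 2 scrambled libraries, and ZNF207 in 0 and 2. ZNF706 had no peak.

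Genes that work with KRAB proteins, none of them in the set, were listed too. Of 19 corepressor and heterochromatin genes, 14 had a peak, 4 of them in all 6 libraries, 3 in more and 3 in fewer knockdown libraries, against 23.3%, 26.1% and 17.1% of all genes. TRIM28, which binds the KRAB box, had no peak in any list, nor had CBX1, CBX3, HDAC2 and DNMT3B. SETDB1 covered 992, 391 and 1351 nt in the knockdown and 841, 271 and 1051 nt in the scrambled libraries, more in the knockdown in all 3 pairs. Of related zinc finger genes, ZSCAN symbols had 18 genes called, with 4 in more and 0 in fewer knockdown libraries, where all genes had 26.1% and 17.1%. ZKSCAN symbols had 7 with 1 and 1, ZFP symbols had 19 with 2 and 0, and ZBTB symbols had 40 with 3 and 9. A lower number of calls in knockdown replicate 2 was seen for ZBTB symbols (21 against 26 genes) and not for ZSCAN (6 against 5) or ZFP symbols (11 against 9). These differences between groups were not tested.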

How the data were processed

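Each of the 6 m6A immunoprecipitates had 1 peak list, so peaks were called per library. The submitters' processing notes name CASAVA 1.8.2, TopHat2, SAMtools and hg19. The peak caller, its threshold and the use of inputs: not given in the sources used here. The label for the antibody names that of replicate 1 for all libraries, and the protocol text was followed. The deposited score spans 0 to 0.0110 and was read as a p-value; it served to rank peaks within a list. The lists hold no counts, so depth is unknown and no interval was given. Gene numbers were named through RefSeq (GRCh38.p14 table, names only), and 10500 of 10536 matched. Peak length is the sum of exon blocks. Regions are peaks of all lists whose blocks overlap by at least 1 bp on 1 strand, 21675 in all, and lengths given for a region are those of the named gene's peaks. Peaks with no gene number, 7.43 to 8.64% of a list, often repeat a named peak, as they do in 45 regions of the ZNF set, and count for region calls alone. Coordinates are those of the lists, counted from 1.

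Libraries were compared with exact permutation and sign-flip tests (Python 3.11.15, SciPy 1.17.1), with Benjamini-Hochberg adjustment over 5 library measures or 4 within-library comparisons, and a threshold of 0.05. The scripts were tested on simulated data. Same-numbered libraries were treated as pairs, since a number stands for 1 RNA type and antibody, with the antibody taken from the protocol text. Deviations of same-numbered libraries correlated at 0.24, 0.31 and 0.29 over regions. The members and gene lists were chosen with earlier results of these data known. Named genes were the 8 with most peaks, the 8 with most covered length, those differing by at least 2 libraries, up to 5 per direction with length moved in all 3 pairs, up to 3 in each of the 6 largest clusters, and list members. For brevity not every one is printed. One ZNF gene off chromosome 19 is not reported here.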

Additional observations from a re-analysis of the deposited data

How the results depend on the processing

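The lower ZNF share of called genes in the knockdown kept its sign under the 16 alternatives run, with -0.525 to -0.210 percentage points when libraries were left out and adjusted p from 0.750 to 1. Under the alternatives run for them, the share of peaks in 1 exon block kept its sign against other genes (4.26 to 6.42) and against chromosome 19 ZNF genes (-5.26 to -1.42), as did median length against other genes (16.2 to 74.5 nt). No library measure passed the threshold under any alternative, but none could. With 3 libraries against 3 the exact permutation test cannot go below 0.100, and with fewer libraries it cannot go lower. The replicate block, an exact sign-flip test of the 3 pairs, changed no call: p was 0.500 for genes called, 0.250 for their share, 0.750 for peaks, 1 for covered length and 0.750 for median length, and 3 pairs cannot go below 0.250.

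Leaving out libraries gave differences of -50.5 to 43 genes called and -148.7 to 146.8 peaks. For covered length they were -62.2 to 99.4 kb and for median length -39.3 to 128 nt. These extremes came from leaving out 1 library, which leaves unlike sets of replicates to compare. Without both libraries of replicate 1, 2 or 3, genes called kept their sign (-13, -0.500 and -7.50). Peaks (-22, 4.50 and -1.50) and covered length (-13.7, 22.1 and 35.7 kb) did not. Median length then differed by 0, 30 and 59 nt. Peaks per library averaged 450.3 in the knockdown and 456.7 in the scrambled libraries. With all lists at equal size covered length was -0.959 kb, and median length against chromosome 19 ZNF genes was -11.8 nt, or -24.5 nt with the best-scored 50%; without libraries it stayed at 19.2 to 47.2 nt. Genes called in more and in fewer knockdown libraries numbered 14 to 28 and 13 to 44 when both libraries of a replicate were left out, and regions 69 to 194 and 104 to 132. Regions called in more knockdown libraries numbered 89 with the best-scored 50% and 63 at equal list size. The cause of these shifts was not tested. Leaving out replicates 1 and 3 as pairs was chosen after seeing the data. With 250 or 1000 kb as the largest gap there were 17 or 21 clusters.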
